A study of Homo sapiens with 4 samples.

Results

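The genes described here belong to the families of enzymes that add or remove methyl and acetyl groups on histone lysines, though some members act on other substrates or have no known activity. They were chosen by name: protein-coding genes of the deposited table whose symbol starts with KMT, KDM, SETD, HDAC, EHMT, SUV39H, NSD, EZH or KAT followed by a digit, with a mean value of at least 1 over the 4 libraries. This gave 62 genes of the 26336 in the table. No protein-coding gene with such a name fell under the minimum, and the lowest member, KDM4D, had a mean value of 11.5. Of the 62 genes, 34 were taken as writers (26 with a SET-type methyltransferase name and 8 acetyltransferases) and 28 as erasers (17 demethylases and 11 deacetylases).

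Polyadenylated RNA was sequenced from wild-type MDA-MB-231, an established human line from a triple-negative breast cancer. One group was given the vehicle DMSO and the other W23-1006, a compound described in the title as blocking the RNA demethylase ALKBH5, each for 24 h and each with 2 libraries. No allele was altered in either group, and the labels give no dose. Whether replicate libraries stem from separate cultures is not stated in the labels, so every p-value is set against library-to-library spread that may be technical. If the smallest value in each column stands for 1 read, depth ran from 15161460 to 16497283 reads. The values are the authors' read counts scaled per library, called normalised read counts below. They are shares of a library, so less RNA of a gene per cell and fewer cells that express it cannot be told apart. Markers of this mesenchymal-like line were abundant, VIM at 21063 to 22495 and EGFR at 16681 to 17794 in the 4 libraries. Of the 7 luminal markers with values, ESR1 stood at 1.99 to 9.64 and EPCAM at 45.4 to 85.8, while KRT8 (3390 to 4194), KRT18 (3530 to 4067) and ERBB2 (871 to 1052) were well expressed, and all 7 summed to 8262 to 9835. The summed values of the leukocyte markers found in the table were 0 to 10.6, and PTPRC and CD3E had no protein-coding row there. The luminal markers CDH1 and PGR and the fibroblast marker DCN had none either. The fibroblast markers summed to 89.7 to 130 reads.

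Histone lysine methylation is written mostly by enzymes with a catalytic SET domain and is read by proteins that open or close chromatin, depending on the residue. Methylation of H3K4 and H3K36 goes with transcribed genes, while methylation of H3K9, H3K27 and H4K20 goes with silenced or compacted chromatin. Most lysine demethylases are JmjC enzymes, which use iron and 2-oxoglutarate as ALKBH5 does, and the KDM1 enzymes use a flavin instead. Lysine acetyltransferases of the GNAT and MYST families loosen chromatin, and the zinc-dependent HDAC enzymes take the acetyl groups off again.

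Only KMT5C and KMT2B passed the test among the 62 genes, both writers and both lower with the compound. KMT5C carries H4K20 to its higher methylation states, and KMT2B methylates H3K4 as the catalytic subunit of a COMPASS-like complex. The other 60 genes, with all erasers among them, did not pass (limma on log2(value + 1), Benjamini-Hochberg adjusted p under 0.05 over the 22486 genes tested). The 2 lower genes are 3.23% of the members. Over all genes tested 1.46% were called lower and 0.694% higher, and over protein-coding genes 2.21% were called lower, so the members' share stands near the background. For 59 of the 62 genes the log2 fold change was smaller than 0.3 in either direction. Changes this small were seen for 13516 of the 22486 genes tested and for 10754 of the 14608 protein-coding ones. Among 12585 better-expressed genes (log2 mean at least 5) there were 10644. Whether the members differ from these genes was not tested.

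KMT5C stood at 158 and 159 normalised reads in the DMSO libraries and at 83.5 and 86.8 with the compound. The groups were far apart compared with the gap inside each. Mean levels were 159 ± 0.33 and 85.1 ± 2.35 (SD, n = 2 each), so that KMT5C fell by 0.89 on the log2 scale with an SE of 0.18 (adjusted p = 0.0249 by limma), lower in 2 of 2 libraries. KMT5B, the paralog that carries out the same reaction, stood at 628 and 579 with DMSO against 627 and 680 with the compound, so its groups overlapped (log2 fold change 0.11, SE 0.09, limma adjusted p = 0.581). KMT5A, which places the first methyl group on H4K20, was also overlapping, at 1042 and 1084 against 1124 and 1064. KMT5C reads therefore made up 25.2% and 27.5% of the KMT5B reads in the DMSO libraries, against 13.3% and 12.8% in those of the compound. With 2 libraries against 2, no exact permutation test of such a ratio can reach a p of 0.05, so none is given.

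KMT2B stood at 1884 and 1836 with DMSO against 1588 and 1492 with the compound. The groups did not overlap. Mean levels were 1860 ± 33.7 and 1540 ± 67.9 (SD, n = 2 each), so that KMT2B fell by 0.27 on the log2 scale with an SE of 0.07 (adjusted p = 0.049 by limma), lower in 2 of 2 libraries and just inside the threshold. KMT2A, its closest relative and a founding member of the family, was at 3337 and 3252 against 3240 and 3132 (log2 fold change -0.05, SE 0.06, limma adjusted p = 0.735), a slight shift with no overlap. The KMT2B reads were 56.4% and 56.5% of the KMT2A reads in the DMSO libraries, against 49.0% and 47.6% in those of the compound. KMT2B overlaps IGFLR1 on the opposite strand, and the strand setting of the counting is not given in the sources used here. IGFLR1 itself was listed at 0 to 7.71.

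**Figure D1:**
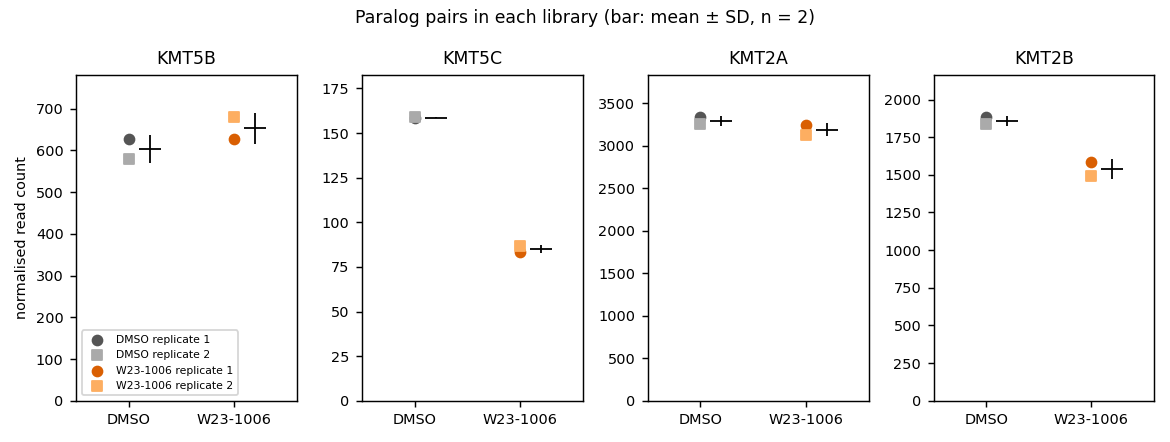
Normalised read counts (vertical axes, from 0) of KMT5B, KMT5C, KMT2A and KMT2B in each of the 4 libraries, with the mean ± SD of the 2 libraries of a group as a black mark. KMT5C falls from about 159 to 85.1 and KMT2B from 1860 to 1540, while the points of KMT5B overlap between DMSO and W23-1006.

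Within each of these pairs the gene that fell has the richer transcript in G and C. The longest transcript had a GC content of 66.1% for KMT5C and 40.7% for KMT5B, 63.5% for KMT2B and 46.9% for KMT2A. Stretches of coding exon that align between the paralogs without a gap are shown to make this visible at the level of the message. They were read from GENCODE release 29 transcripts on GRCh38, 5′ to 3′ on the coding strand, and capitals mark each G or C that faces an A or T in the paralog.
KMT5B: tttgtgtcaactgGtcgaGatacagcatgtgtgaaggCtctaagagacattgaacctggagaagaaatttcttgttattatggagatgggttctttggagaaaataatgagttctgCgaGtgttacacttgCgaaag
KMT5C: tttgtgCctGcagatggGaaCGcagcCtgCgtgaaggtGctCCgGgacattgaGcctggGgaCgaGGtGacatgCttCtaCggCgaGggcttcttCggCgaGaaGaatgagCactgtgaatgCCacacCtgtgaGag
KMT2A: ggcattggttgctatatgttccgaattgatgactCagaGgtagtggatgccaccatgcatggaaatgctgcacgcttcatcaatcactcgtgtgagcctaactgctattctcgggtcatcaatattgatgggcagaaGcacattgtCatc
KMT2B: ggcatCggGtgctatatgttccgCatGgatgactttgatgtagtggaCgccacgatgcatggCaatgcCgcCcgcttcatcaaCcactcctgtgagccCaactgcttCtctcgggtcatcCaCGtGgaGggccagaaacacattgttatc
The KMT5B stretch lies in exon 9 of 11 at chr11:68171015-68171151 on the minus strand, and the KMT5C stretch in exon 7 of 9 at chr19:55346213-55346349 on the plus strand. Of their 137 positions 92 are identical, and KMT5C has 31 capitals against 6 in KMT5B. The KMT2A stretch lies in the last of 36 exons at chr11:118521897-118522046 and the KMT2B stretch in the last of 37 exons at chr19:35738282-35738431, both on the plus strand. Of their 150 positions 125 are identical, with 16 capitals in KMT2B and 4 in KMT2A. Over the whole coding sequence the last codon position held G or C in 79.0% of codons of KMT5C against 39.7% of KMT5B, and in 66.3% of KMT2B against 43.9% of KMT2A.

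The other methyltransferases did not pass the test. At an unadjusted p under 0.05 in limma were 9 of the 26 SET proteins (34.6%), KMT5C and KMT2B included. The same held for 16.7% of all genes tested and 23.3% of protein-coding genes. Among the H3K4 enzymes, KMT2D was at 5251 and 5030 with DMSO against 4716 and 4440 with the compound, groups that did not overlap, but it missed the threshold (log2 fold change -0.17, SE 0.06, limma adjusted p = 0.13). SETD1B stood at 852 and 821 against 774 and 654, lower in both compound libraries as well (-0.23, SE 0.09). SETD7, which adds a single methyl group to H3K4 and acts on other proteins too, lay the other way, at 2303 and 2232 against 2499 and 2676 (0.19, SE 0.06, limma adjusted p = 0.127). KMT2C and SETD1A overlapped between the groups. KMT2C has partial copies elsewhere in the genome, so its counts are uncertain.

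Of the H3K36 enzymes NSD2, which mainly adds up to 2 methyl groups, was at 5674 and 5596 with DMSO against 5197 and 4978 with the compound. It did not pass (log2 fold change -0.15, SE 0.05, limma adjusted p = 0.16). NSD3 and SETD2, the latter being the enzyme that completes the trimethyl mark on H3K36, were higher in both compound libraries, at log2 fold changes of 0.14 and 0.09, whereas NSD1 overlapped. EZH2, the catalytic subunit of Polycomb repressive complex 2, was at 1423 and 1537 against 1400 and 1322 (-0.12, SE 0.07), and its paralog EZH1 overlapped. In the H3K9 group SUV39H2, an enzyme of constitutive heterochromatin, was at 886 and 713 against 915 and 984 (0.26, SE 0.10, limma adjusted p = 0.195), while its paralog SUV39H1 overlapped at 148 to 188. EHMT1 and EHMT2, which form the main enzyme for the lower H3K9 methyl states, had log2 fold changes of -0.18 and -0.21, and only EHMT1 was lower in both compound libraries. SUV39H2 shares its locus with DCLRE1C on the opposite strand.

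The remaining SET proteins did not pass either. SETD5 was at 3696 and 3711 against 3742 and 3700 (log2 fold change 0.01, SE 0.05), and SETD3, which methylates a histidine of actin rather than a histone, at 0.02 (SE 0.08). KMT2E, a relative of KMT2A without known methyltransferase activity, SETD4, SETD6 and SETD9 lay between -0.11 and 0.20, with SETD4 lower and SETD9 higher in both compound libraries and the other 4 overlapping. A processed pseudogene of KMT5A has its own row, SETD8P1, at 9.29 to 27.9.

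None of the 8 acetyltransferases passed in limma. An unadjusted p under 0.05 was seen for 2 of them (25%), against 16.7% of all genes tested and 23.3% of protein-coding genes. KAT2A, the GCN5 subunit of SAGA that acetylates H3, was at 1657 and 1678 with DMSO against 1487 and 1342 with the compound. Both compound libraries lay below both DMSO libraries, but the change missed the threshold (log2 fold change -0.24, SE 0.07, limma adjusted p = 0.094). Its paralog KAT2B overlapped, at 1157 and 1182 against 1143 and 1280. KAT8, which acetylates lysine 16 of H4, stood at 265 and 239 against 201 and 228 (-0.24, SE 0.13, limma adjusted p = 0.408), and at -0.15 without compound replicate 1. KAT6A was higher in both compound libraries, at 1986 and 1941 against 2227 and 2157 (0.16, SE 0.06, limma adjusted p = 0.208), and KAT7 likewise with a smaller log2 fold change of 0.08. KAT5, KAT6B and KAT14 lay at -0.18, -0.03 and -0.11.

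No demethylase passed in limma. Of the 17, 2 (11.8%) were at an unadjusted p under 0.05, against 16.7% of all genes tested and 23.3% of protein-coding genes. The largest log2 fold changes were those of KDM4B and KDM4C, paralogs that act on H3K9 and H3K36, and they lay in opposite directions. KDM4B was at 1022 and 860 with DMSO against 843 and 738 with the compound (log2 fold change -0.25, SE 0.10, limma adjusted p = 0.198), the groups being separated by less than the gap between the DMSO libraries. Its log2 fold change was -0.12 without DMSO replicate 1 and -0.15 without compound replicate 2. KDM4C was at 145 and 158 against 174 and 187 (0.25, SE 0.15, limma adjusted p = 0.444). KDM4A stood at 0.12, and KDM4D, at 6.98 to 17.5 reads, was too low to show a change of this size. KDM3A, an H3K9 demethylase, was at 1000 and 964 against 1089 and 1160 (0.20, SE 0.08), and KDM7A was also higher in both compound libraries (0.20, SE 0.13). The H3K4 demethylases KDM1A and KDM5B were among the steadiest members, KDM1A at 2342 and 2314 against 2316 and 2261 (-0.02, SE 0.06). Of the other KDM5 enzymes KDM5A was higher (0.09, SE 0.06) and KDM5C lower (-0.10, SE 0.07) in both compound libraries. KDM8 stood at 53.8 and 46.4 reads with DMSO against 45.7 and 46.3 with the compound (-0.12, SE 0.28), so its groups nearly touched. The H3K27 demethylases KDM6A and KDM6B overlapped, as did KDM1B, KDM2A, KDM2B and KDM3B. Among the 15 JmjC enzymes 10 had a positive log2 fold change (66.7%, against 48.7% of all genes tested and 49.4% of protein-coding genes). Their median was 0.02, and whether they differ from other genes was not tested.

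No deacetylase passed in limma. An unadjusted p under 0.05 was seen for 5 of 11 (45.5%), against the 16.7% of all genes tested and 23.3% of protein-coding genes, 3 of them lower and 2 higher. HDAC10, a polyamine deacetylase of class IIb, had the largest log2 fold change of the 62 genes, at 26.9 and 32.0 with DMSO against 16.9 and 12.5 with the compound (-0.96, SE 0.42, limma adjusted p = 0.256). Its libraries did not overlap, but the level is low, and MAPK12 overlaps it on the same strand. HDAC6, the other class IIb enzyme, which works on tubulin, was at 277 and 295 against 241 and 225 (-0.29, SE 0.12, limma adjusted p = 0.241). HDAC9, of class IIa, was at 332 and 294 against 373 and 470 (0.42, SE 0.13, limma adjusted p = 0.0948), with compound replicate 2 well above the rest and a log2 fold change of 0.25 without that library. HDAC7, of the same class, was at 1118 and 1054 against 901 and 950 (-0.23, SE 0.08). HDAC2, a core enzyme of the nuclear class I complexes, was at 4036 and 3971 against 4458 and 4464 (0.16, SE 0.05, limma adjusted p = 0.143), whereas HDAC1 and HDAC3 overlapped at -0.04 and -0.05. HDAC4 was lower (-0.15, SE 0.08) and HDAC8 higher (0.21, SE 0.14) in both compound libraries, while HDAC5 and HDAC11 overlapped.

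**Figure D2:**
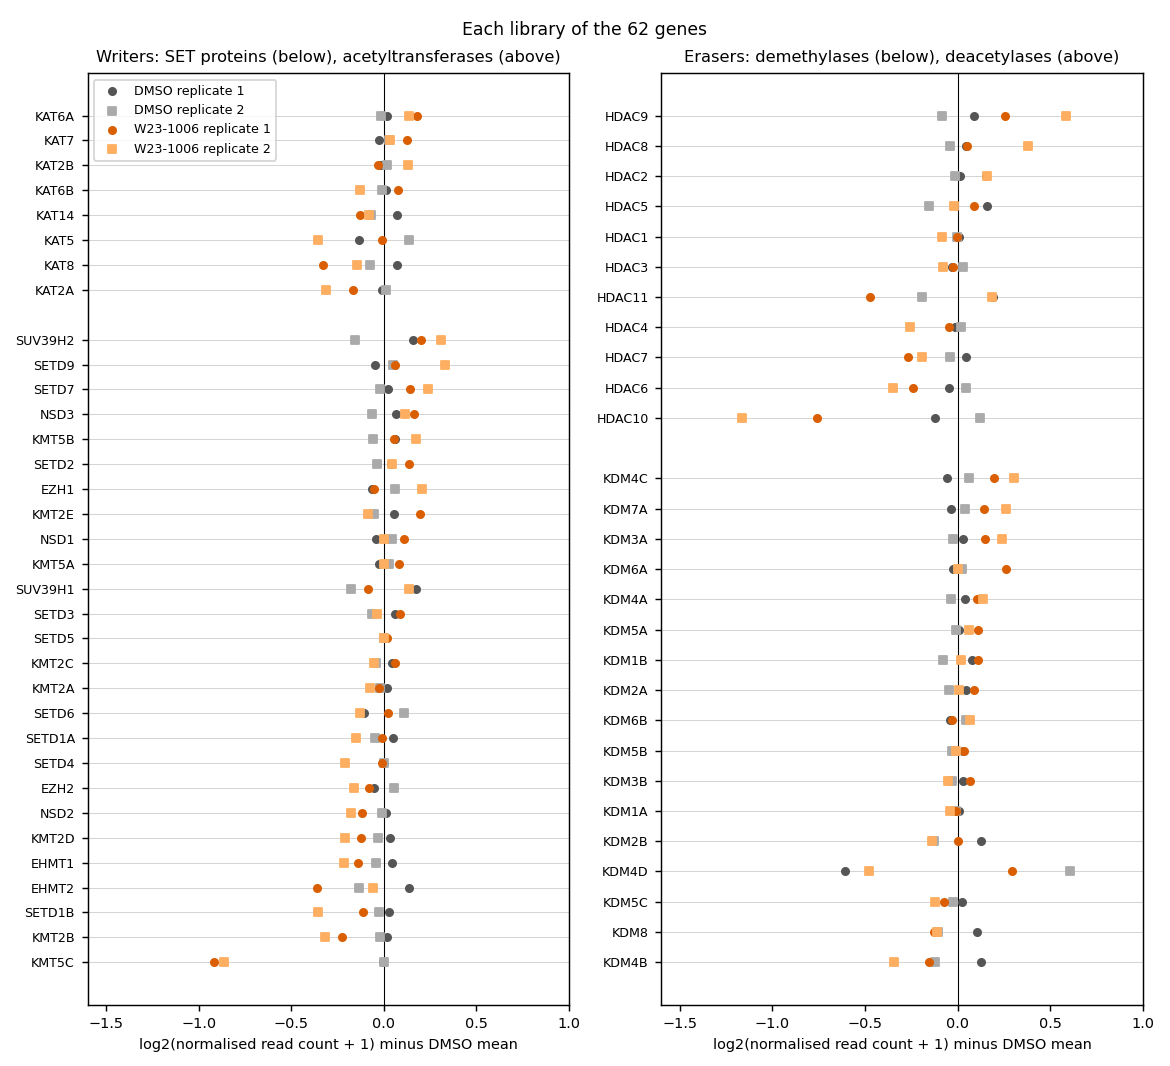
Each row is 1 gene and each point 1 library, placed at log2(normalised read count + 1) minus the mean of the 2 DMSO libraries, with writers on the left and erasers on the right. KMT5C and HDAC10 stand alone at the far left, while most compound libraries lie within 0.3 of the DMSO mean.

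Both compound libraries lay above both DMSO libraries for 15 of the 62 genes (24.2%, against 22.1% of all genes tested) and below them for 19 (30.6%, against 25.0%). These shares are close to the background. At an unadjusted p under 0.05 (limma) were 18 of the members, 29%, and 23.3% of protein-coding genes.

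Writers and erasers had medians that lay close to each other. The median log2 fold change was -0.01 for the 34 writers (from -0.89 to 0.26) and 0.01 for the 28 erasers (from -0.96 to 0.42), and -0.01 over all genes tested. The difference of these medians was -0.02. Medians were also taken in each library, of the deviation from the gene's mean over the 4 libraries. For writers they were 0.027 and 0.0019 with DMSO against 0.0081 and -0.039 with the compound. For erasers they were 0.024 and -0.044 against 0.034 and -0.033. The writers' median thus lay above the erasers' in both DMSO libraries and below it in both compound libraries. This per-library difference had a replicate SD of 0.0235. Whether the 2 sides differ was not tested. Of the writers 17 had a positive and 17 a negative value, and of the erasers 15 and 13. Positive values thus made up 50% of the writers and 53.6% of the erasers, against 48.7% of all genes tested. By class the medians were 0.00 for SET proteins, -0.07 for acetyltransferases, 0.02 for demethylases and -0.05 for deacetylases. Summed per kb of exon, the writers stood at 1.42 and 1.43 times the erasers in the DMSO libraries and at 1.39 and 1.40 times with the compound.

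**Figure D3:**
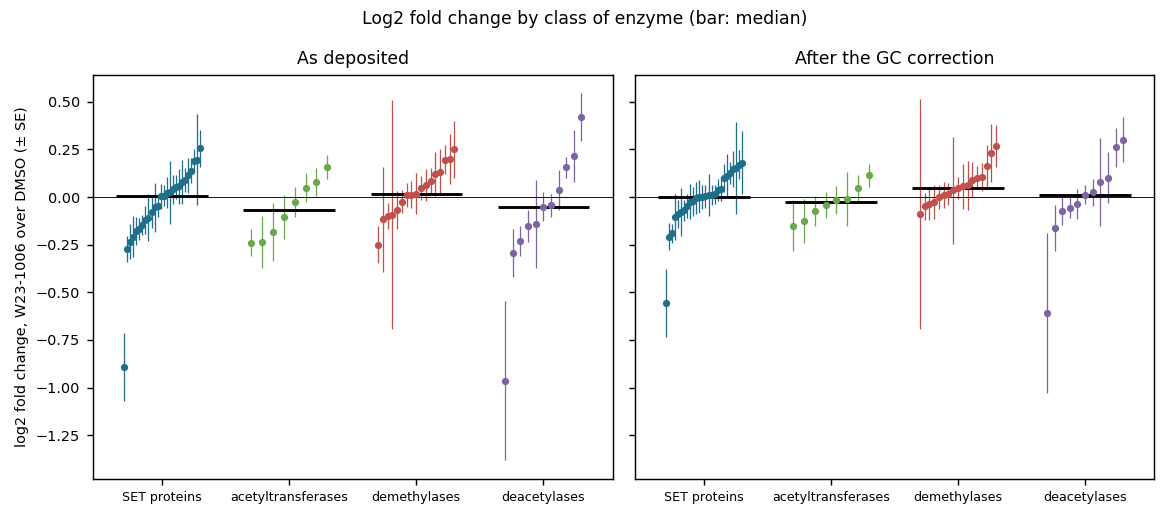
Log2 fold change with its SE (vertical axis) for each gene by class of enzyme, as deposited on the left and after the GC correction on the right, with the class median as a black bar. The medians lie within 0.1 of 0 in all 4 classes on both sides, and KMT5C and HDAC10 are the lowest points.

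The log2 fold change of the members followed the GC content of their transcripts, as it did across the transcriptome. Over the 62 genes, Spearman's rho between these measures was -0.75 and Pearson's r was -0.73. Over 12582 better-expressed genes (mean log2 value 5 or more), rho was -0.66 and r was -0.615. These correlations are across genes that share the same 4 libraries and are given as a description. The limits of 45% and 55% GC used next were set after the values were seen. Of the 17 members under 45% GC, 16 had a positive log2 fold change (94.1%, against 81.8% of the better-expressed genes in that range), the exception being EZH2. Of the 19 members at 55% GC or more, 16 had a negative value (15.8% positive, against 11.0%), the exceptions being SUV39H1, HDAC5 and KDM6B. The split held on both sides: the GC-rich writers had a median of -0.21 and the GC-rich erasers -0.15, and the GC-poor writers 0.10 and the GC-poor erasers 0.16. In bins of 4 points of GC, 39 members lay between the quartiles of all better-expressed genes, 15 above them and 8 below. KMT5C, at -0.89, was under the lower quartile of its bin (-0.42), whereas KMT2B, at -0.27, lay between the quartiles of its own (-0.32 to -0.14).

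**Figure D4:**
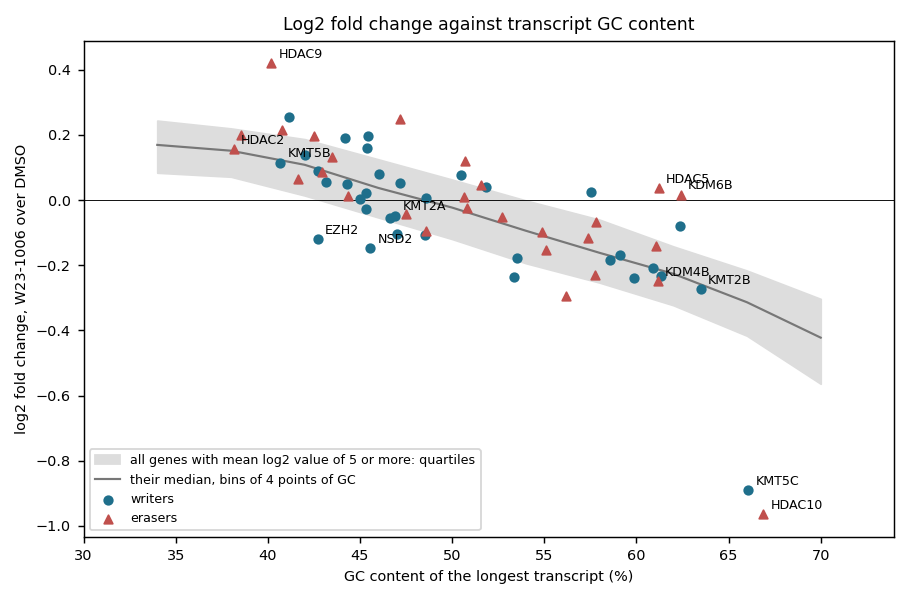
Log2 fold change (vertical axis) against GC content of the longest transcript in percent (horizontal axis), with writers as circles and erasers as triangles over the median and quartiles of all better-expressed genes. The members slope down with the grey band, and KMT5C and HDAC10 lie well under it.

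Removing from each library its trend on GC content left neither call. KMT2B went to 0.00 (SE 0.06, limma adjusted p = 0.996) and KMT5C to -0.56 (SE 0.18, limma adjusted p = 0.474). None of the 62 genes passed with this correction, against 0.0934% of all genes. At an unadjusted p under 0.05 were 8 members (12.9%), against 7.25% of all genes. KMT2D went to 0.01, SETD1B to -0.01, KAT2A to -0.04, KDM4B to -0.03 and HDAC2 to 0.01, while KDM4C stood at 0.23 (SE 0.15), and HDAC9 and HDAC10 came closer to 0, at 0.30 (SE 0.12) and -0.61 (SE 0.42). NSD2 and EZH2, which are not GC-rich, moved away from 0, to -0.19 (SE 0.05) and -0.21 (SE 0.07), and KDM6B and HDAC5 went to 0.27 (SE 0.11) and 0.26 (SE 0.10). Of the 62 genes 46 kept their sign and 16 turned. Among the protein-coding genes tested 11186 kept it and 3422 turned. The medians after the correction were 0.00 for writers and 0.03 for erasers. What part GC content has in the 2 calls was not tested beyond this correction.

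Both calls were also lost without any one of the 4 libraries, with a pseudocount of 0.1, without a filter on low values, and in limma without its trend. In each of these settings limma called 0 genes of any kind, so the loss is not particular to these 2 genes. The log2 fold changes stayed between -0.92 and -0.86 for KMT5C and between -0.32 and -0.23 for KMT2B when a library was left out. With protein-coding genes alone KAT2A passed as lower and HDAC9 as higher as well, and with a filter of 5 CPM in 2 libraries so did SETD7. In the authors' deposited table KMT2B is at a log2 fold change of -0.27 with an adjusted p of 0.0292 and is the 1 member called lower, against 1.36% of the table. The authors' deposited table gives KMT5C a log2 fold change of -0.90, a p of 0.00212 and an adjusted p listed as 1. An adjusted p of 1 is listed in the authors' deposited table for 20 members, whose mean values reach up to 367, whereas the other members start at 393. The same listing applies to 18892 of the 26336 genes. The share of 1.36% therefore counts many genes that could not be called.

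Levels per kb of exon ordered the members within each class. HDAC1 was the highest of the 62 genes in DMSO, at 726 normalised reads per kb, followed by KAT2A (442 per kb) and KDM1A (428 per kb), and the highest SET proteins were SETD5 (343 per kb) and EZH2 (327 per kb). At the low end were KDM4D (4.12 per kb), HDAC10 (5.95 per kb), HDAC8 (10.3 per kb) and KDM8 (12.4 per kb). The length used is the deposited gene length, 22986 bases for HDAC8, which exceeds that of its longest transcript. The order of the genes therefore depends on the annotated length. The class medians in DMSO were 128 per kb for SET proteins, 77.6 for acetyltransferases, 55.9 for demethylases and 78.2 for deacetylases, against 73.8 over protein-coding genes tested. KMT5C was next to last among the SET proteins in DMSO, at 33.2 per kb, above SETD9 at 22.8, and lay under SETD9 with the compound, at 17.8 against 26.3.

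**Figure D5:**
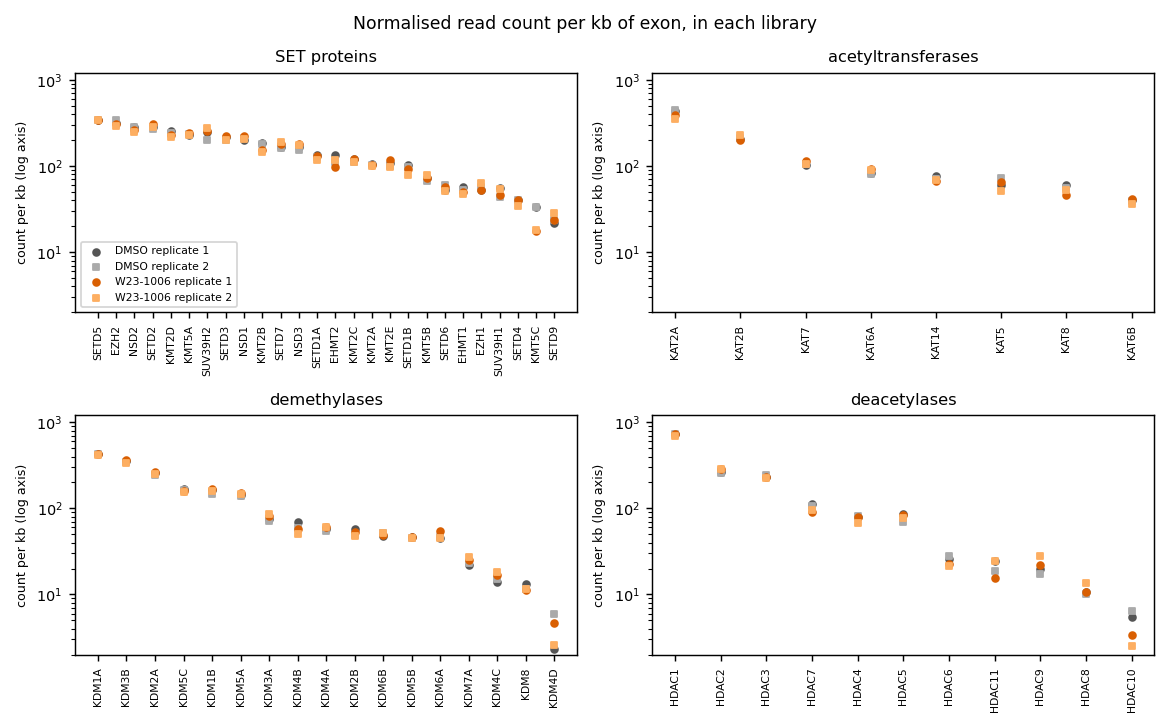
Normalised read count per kb of exon (log axis) in each of the 4 libraries, with genes ordered by their DMSO level within each class. The 4 libraries of most genes lie on top of each other over a range from about 726 for HDAC1 to 4.12 for KDM4D, and KMT5C and HDAC10 show separated groups.

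ALKBH5 acts on m6A, which is placed mostly in a short sequence context of which GGACT is a common form. This motif, searched on the sense strand of the longest transcript, occurred in 61 of the 62 members and in 92.3% of the better-expressed genes. Members held a median of 1.03 per kb, against 0.911 per kb in the better-expressed genes, KMT5C holding 1.30 and KMT2B 1.65. Over the members Spearman's rho between motif density and log2 fold change was -0.19, and -0.01 after the GC correction, a description across genes that share their libraries. Over the better-expressed genes this rho was -0.21, and 0.007 after the GC correction. Motif density had a rho with GC content of 0.22 over the members and 0.34 over the better-expressed genes. A match is a sequence and does not show methylation. ALKBH5 mRNA was at 1434 and 1443 with DMSO against 1281 and 1242 with the compound (log2 fold change -0.19, SE 0.07, limma adjusted p = 0.167).

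The partners of these enzymes were taken from 7 lists of 101 further chromatin genes, of which 1 passed as higher (0.99%, against 0.694% of all genes tested) and 5 as lower (4.95%, against 1.46% of all genes tested and 2.21% of protein-coding genes). Among other methyltransferases 2 of 17 fell: DOT1L, which methylates H3K79, by 0.32 on the log2 scale, with means of 1681 ± 113 and 1342 ± 27.7 (SD, n = 2; adjusted p = 0.0357 by limma), and CARM1, an arginine methyltransferase, by 0.36 on the log2 scale (limma adjusted p = 0.0413). Of 21 subunits of deacetylase complexes 3 fell, among them the NuRD subunits MBD3 (-0.33) and MTA1 (-0.32), and 1 rose, TBL1XR1, a subunit of a corepressor complex (0.29, limma adjusted p = 0.0324). DOT1L, CARM1, MBD3 and MTA1 had GC contents of 61.6% to 62.7% and TBL1XR1 one of 34.5%. None of the 101 genes passed after the GC correction, and the log2 fold changes of these named genes then lay between -0.12 and 0.12. Of the 6 other acetyltransferases, 8 other demethylases and JmjC proteins, 7 sirtuins, 17 subunits of PRC2 and COMPASS and 25 subunits of acetyltransferase complexes, 0 passed. The smallest p in these lists belonged to HAT1 (0.15, limma adjusted p = 0.258), JMJD1C (0.27, limma adjusted p = 0.0588), SIRT6 (-0.26, limma adjusted p = 0.208), HCFC1 (-0.23, limma adjusted p = 0.0912) and EPC2 (0.25, limma adjusted p = 0.132). The medians of the 7 lists lay between -0.09 and 0.01, against -0.01 over all genes tested.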

How the data were processed

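Per the submitters' processing notes the tools were HISAT2 2.0.5 and featureCounts 1.5.0-p3, besides CASAVA, fastp and DESeq2 1.20.0, on GRCh38. Which tool did what, and how strand was set, is not given in the sources used here. The authors deposited a signal for each library, read counts scaled by library, in a single table. Columns headed treatment and control were read as compound and DMSO by replicate number. The log2 fold change, p-value and adjusted p-value in it, per the file headers, are the authors' own and are used where named. Gene positions come from the same table, and 99.98% were identical in GENCODE release 29.

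Every gene averaging 1 or more over the 4 libraries (22486 genes) entered limma 3.58.1 (R 4.3.3) on log2(value + 1). Treatment was the sole term, the variance followed a trend on the mean, tests were two-sided and p-values were adjusted by Benjamini-Hochberg over all genes. A fold change on this scale understates the change of low genes. GC content is that of the longest GENCODE transcript. The GC correction subtracted from each library a loess curve (span 0.3) fitted on genes averaging 5 or more on the log2 scale; gene length was treated alike. Other alternatives were pseudocounts, filters, scalings, a replicate block and leaving out each library. Coding exons were aligned with Biopython 1.88. The paralog stretch shown is the longest block aligned without a gap within 1 exon of both genes. A block over 150 bases was cut to the window of 150 with most identical positions.

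The members, lists, roles and alternatives were chosen with earlier results of these data known. By the rule for named genes every member may be named; of the other chromatin lists, the members past the threshold and the one with the smallest p are given, except 1 gene that is not reported here. IGFLR1, MAPK12, DCLRE1C and ALKBH5 were named after their values or positions were seen.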

Additional observations from a re-analysis of the deposited data

How the results depend on the processing

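KMT5C and KMT2B kept a negative log2 fold change in all alternatives but the GC correction, with or without the replicate block, where KMT2B turned to 0.0017. Against 484 genes (156 higher, 328 lower) and 2 members called, a pseudocount of 0.1, no filter and limma without trend each called 0 genes and 0 members (3515, 3568 and 1866 genes at an unadjusted p under 0.05). The GC correction called 21 genes (14 higher, 7 lower) and 0 members. Larger counts came with a pseudocount of 5 (770, 281 higher), a filter of 5 CPM in 2 libraries (1475: 637 higher, 838 lower; 5 members), protein-coding genes alone (1133: 449 higher, 684 lower; 4 members), equal totals (826: 238 higher, 588 lower), trimmed-mean scaling (499 lower) and the gene length correction (774, 361 higher; 3 members). Why the counts differ was not tested. Without any one library limma called 0 genes and 0 members (1904 to 3112 genes at an unadjusted p under 0.05), with the writers' median between -0.065 and -0.0071, the erasers' between -0.019 and 0.047, and their difference between -0.054 and -0.021; the lone library of a group is then assumed to vary like the other group. Deviations of same-numbered libraries had a correlation of 0.0436 over 12585 genes. This value alone does not settle whether replicate numbers pair the libraries. With the replicate block 1731 genes (730 higher, 1001 lower) and 8 members passed, and with the block after the GC correction 200 genes (94 lower) and 1 member, NSD2. The medians of writers and erasers and their difference moved by less than the replicate spread in all alternatives that keep the 4 libraries. The low depth of KDM4D and HDAC10 limits what their values can show.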

Other observations

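Of 8 rows with a matching name that are not protein-coding, HDAC2-AS2, antisense to HDAC2, stood at 24.9 and 22.7 with DMSO against 34.8 and 32.8 with the compound, and KDM4A-AS1 at 26.9 and 26.8 against 15.9 and 22.2. Reads of these rows and of their partners on the other strand cannot be told apart with certainty.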
